A study of Mus with 8 samples.

Results

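The genes described here encode the cyclins, kinases and activators that carry a cell through mitosis: Ccna2, Ccnb2, Cdk1, Cdc25c, Plk1, Aurka, Aurkb and Cdc20, together with Foxm1, a transcription factor of the same phase. They were chosen by gene symbol from a list of 10, of which 9 were measured under that symbol, among 23185 named genes. The remaining gene of the list, Ccnb1, was not analysed here because the platform annotation used to name the rows does not list it, so every count below is over the 9 genes and says nothing of Ccnb1. Their expression was measured on arrays of mouse liver collected 48 h after a partial hepatectomy, surgery that cuts away part of the liver and sets the remainder growing. The groups were 4 liver samples labelled LKB1 KO and 4 labelled Ctrl, 1 array each, and both groups had undergone the operation. The labels do not say whether the samples of a group came from separate animals, so the p-values rest on a spread that may be technical in part. LKB1, encoded by Stk11, is the kinase upstream of AMPK and its relatives. The sources used here do not give the strain, sex or age of the mice, the way LKB1 was removed or the cells that lost it. No liver without surgery was analysed.

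Entry into mitosis is driven by cyclin-dependent kinase 1 bound to a cyclin of the A or B type. The complex is held inactive by phosphorylation until CDC25 phosphatases remove the block, a step to which Polo-like kinase 1 and Aurora A contribute, and it is shut down when CDC20 directs the anaphase-promoting complex to destroy the cyclins. Many of these genes are switched on together late in the cycle by FOXM1 and the MuvB-B-MYB complex, so their messenger RNAs mark cells in G2 and mitosis. Resting hepatocytes carry little of them, and a wave of DNA synthesis followed by mitosis passes through the liver after hepatectomy.

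All 9 genes had a higher mean in the LKB1 KO samples, by 0.89 to 1.64 log2 units with a median of 1.26, and 8 of the 9 differed by at least 1 log2 unit. Ccnb2, a B-type cyclin gene, and Plk1, a mitotic kinase gene, rose, and the other 7 did not pass the test. The test was a limma linear model across all 23185 named genes with Benjamini-Hochberg adjustment and a threshold of 0.05. Higher calls made up 0.487% of all genes tested, and higher means of at least 1 log2 unit 0.794%. A higher mean alone was common, at 52.9% of genes, and the median difference over all genes was 0.02 log2 units. In size the 9 differences ranked between 32 and 239 from the top of the 23185, but in p-value only between 289 and 3129. The arrays of 1 group differed widely in these genes. Their SD within groups was between 0.52 and 0.73 log2 units, with a median of 0.67, against a median of 0.23 over all genes. In a bulk liver sample, more cells in mitosis and more RNA per dividing cell cannot be told apart.

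**Figure D1:**
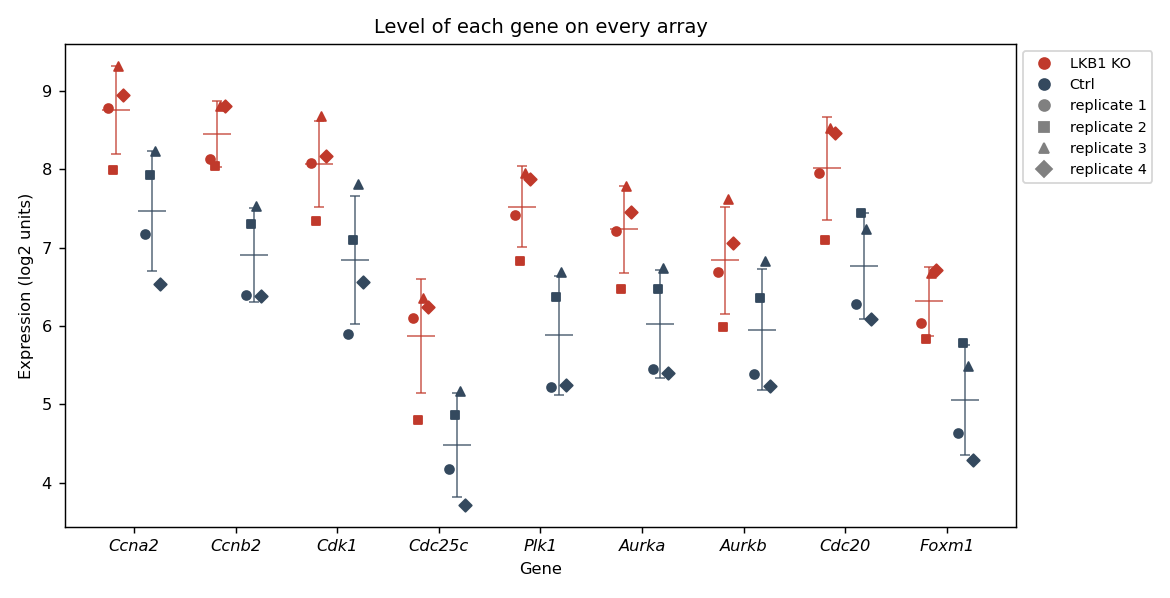
Level of each gene on every array, in log2 units on the vertical axis, with LKB1 KO arrays (red) left of Ctrl arrays (dark) and 1 marker shape per replicate number. Horizontal bars are group means and whiskers are SD (n = 4). The square of LKB1 KO 2 is the lowest red marker in all 9 genes.

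Each array was checked first by Stk11, the targeted gene. Its log2 level was 3.98, 3.97, 4.84 and 4.22 in LKB1 KO 1 to 4, against 6.69, 6.68, 6.46 and 6.76 in Ctrl 1 to 4. No array went against its label, and the fitted difference was -2.39 (SE 0.19, adjusted p = 0.000453). LKB1 KO 2 stood apart from the rest in the whole array: its median over all genes was 3.96, against 3.75 to 3.86 on the other 7 arrays, and the SD of its values over genes was 1.92, against 2.03 to 2.10 elsewhere. Its mean correlation with its own group was 0.974, and that of Ctrl 4, the lowest of the Ctrl arrays, was 0.976. Results are therefore also given without LKB1 KO 2 and without Ctrl 4. The number of arrays limits the precision.

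Among the cyclins, Ccnb2 rose and Ccna2 did not pass the test. Ccnb2 (Entrez Gene 12442) stood at 8.13, 8.05, 8.82 and 8.81 log2 units in LKB1 KO 1 to 4, against 6.40, 7.30, 7.54 and 6.38 in Ctrl 1 to 4. Every LKB1 KO array lay above every Ctrl array, a pattern seen in 3.34% of all genes. The means were 8.45 ± 0.42 in LKB1 KO and 6.91 ± 0.60 in Ctrl (SD, n = 4 each), a difference of 1.54 log2 units or 2.92-fold (SE 0.29, 95% confidence interval 0.89 to 2.20, limma adjusted p = 0.0250). Cyclin B2 partners CDK1 and is found largely on membranes of the Golgi in dividing cells. Ccna2 (Entrez Gene 12428) encodes cyclin A2, which serves CDK2 in S phase and CDK1 in G2. It read 8.79, 7.99, 9.32 and 8.95 in LKB1 KO 1 to 4, against 7.18, 7.93, 8.24 and 6.53 in Ctrl 1 to 4. LKB1 KO 2 fell between the highest 2 Ctrl arrays, so the groups overlapped, and the difference of 1.29 (SE 0.37, limma adjusted p = 0.126) missed the threshold.

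The kinase that these cyclins activate and its phosphatase did not pass the test. Cdk1 (Entrez Gene 12534) read 8.08, 7.35, 8.68 and 8.17 in LKB1 KO 1 to 4, against 5.89, 7.10, 7.81 and 6.56 in Ctrl 1 to 4. Ctrl 3 exceeded LKB1 KO 2, and the difference was 1.23 log2 units (SE 0.38, limma adjusted p = 0.168). Cdc25c (Entrez Gene 12532) encodes a phosphatase that lifts the inhibitory phosphates from CDK1. Its values were 6.10, 4.80, 6.36 and 6.24 in LKB1 KO 1 to 4, against 4.17, 4.87, 5.17 and 3.72 in Ctrl 1 to 4. LKB1 KO 1, 3 and 4 lay close together and above all Ctrl arrays, while LKB1 KO 2 lay below Ctrl 2 and Ctrl 3. The difference was 1.39 (SE 0.38, limma adjusted p = 0.108), and without LKB1 KO 2 it was 1.75 with an adjusted p of 0.0284. Ctrl 4 stood just under 3.73 log2 units, the level below which 95% of 1354 olfactory and vomeronasal receptor genes lay, so the size of the Cdc25c difference is uncertain. These receptor genes, which liver is not expected to use, served as a gauge of background, and no other value of the 9 genes was below it.

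**Figure D2:**
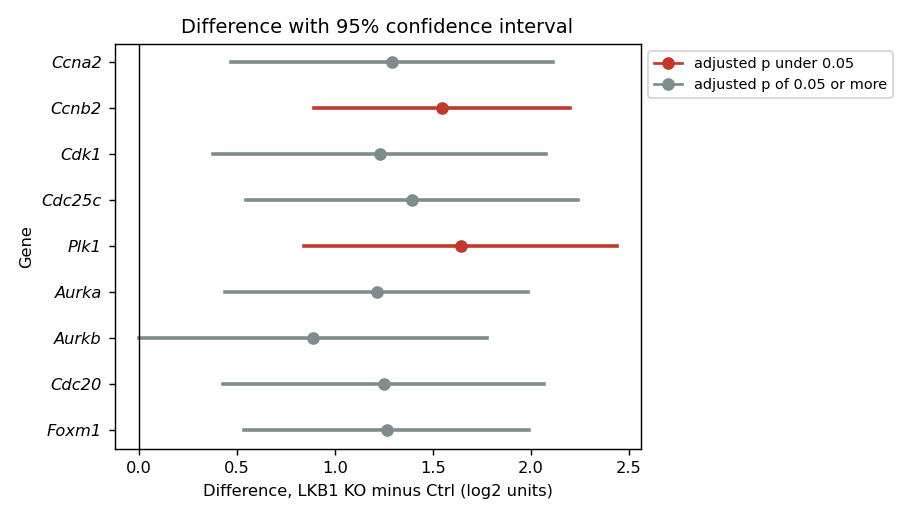
Difference between LKB1 KO and Ctrl for each gene, in log2 units on the horizontal axis, with the 95% confidence interval of the linear model. The intervals of 8 genes lie above 0 and that of Aurkb reaches it, while Ccnb2 and Plk1 (red) are the 2 with an adjusted p under 0.05.

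Of the mitotic kinases, Plk1 rose and the Aurora kinase genes did not pass. Plk1 (Entrez Gene 18817), which acts from centrosome maturation to cytokinesis, stood at 7.41, 6.84, 7.96 and 7.88 in LKB1 KO 1 to 4, against 5.22, 6.37, 6.69 and 5.25 in Ctrl 1 to 4. The groups did not overlap, though only 0.15 log2 units lay between LKB1 KO 2 and Ctrl 3. Means were 7.52 ± 0.52 in LKB1 KO and 5.88 ± 0.76 in Ctrl (SD, n = 4 each), a 3.12-fold difference of 1.64 log2 units (SE 0.36, 95% confidence interval 0.84 to 2.44, limma adjusted p = 0.0471). Aurka (Entrez Gene 20878), the Aurora kinase of centrosomes and spindle poles, read 7.21, 6.48, 7.79 and 7.46 in LKB1 KO 1 to 4, against 5.45, 6.48, 6.74 and 5.41 in Ctrl 1 to 4. LKB1 KO 2 and Ctrl 2 were level, Ctrl 3 lay above both, and the difference was 1.21 (SE 0.35, limma adjusted p = 0.126). Aurkb (Entrez Gene 20877) encodes the kinase of the chromosomal passenger complex, which corrects attachments of chromosomes to the spindle. It read 6.69, 5.98, 7.63 and 7.06 in LKB1 KO 1 to 4, against 5.38, 6.35, 6.84 and 5.24 in Ctrl 1 to 4. Here only LKB1 KO 3 and LKB1 KO 4 exceeded all Ctrl arrays, and Aurkb had the smallest difference of the 9, at 0.89 (SE 0.40, 95% confidence interval -0.003 to 1.77, limma adjusted p = 0.375).

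Cdc20 and Foxm1, which stand at the end of mitosis and at the head of its transcription, had differences of similar size. Cdc20 (Entrez Gene 107995), the activator of the anaphase-promoting complex, read 7.96, 7.10, 8.52 and 8.47 in LKB1 KO 1 to 4, against 6.28, 7.44, 7.25 and 6.10 in Ctrl 1 to 4. LKB1 KO 2 lay below Ctrl 2 and Ctrl 3, and the difference was 1.25 (SE 0.37, limma adjusted p = 0.142). Foxm1 (Entrez Gene 14235) read 6.04, 5.84, 6.67 and 6.71 in LKB1 KO 1 to 4, against 4.64, 5.79, 5.49 and 4.29 in Ctrl 1 to 4. Its groups did not overlap, by a margin of 0.05 log2 units between LKB1 KO 2 and Ctrl 2. The difference of 1.26 (SE 0.33, limma adjusted p = 0.0892) did not pass. An exact two-sided permutation test of the 4 against 4 values gave 0.0286, the smallest p this design allows, for Ccnb2, Plk1 and Foxm1, the 3 genes without overlap. For the other 6 genes it gave between 0.0571 and 0.171.

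The 9 genes were high or low on the same arrays. LKB1 KO 2 held the lowest LKB1 KO value in 9 of 9 genes, and LKB1 KO 3 the highest in 8, with LKB1 KO 4 the highest for Foxm1. Among the Ctrl arrays the lowest value was in Ctrl 4 for 7 genes and in Ctrl 1 for Cdk1 and Plk1, and the highest was in Ctrl 3 for 7 genes and in Ctrl 2 for Cdc20 and Foxm1. Each array can be summarised by the median of the 9 deviations, a deviation being a gene's log2 value minus its own mean over the 8 arrays. This median was 0.59, -0.12, 1.18 and 1.03 in LKB1 KO 1 to 4, against -1.11, -0.18, -0.01 and -1.30 in Ctrl 1 to 4. Ctrl 2 and Ctrl 3 thus stood near LKB1 KO 2, while the other 3 LKB1 KO arrays and the other 2 Ctrl arrays lay far apart. LKB1 KO 3, with the highest mitotic values, also had the highest remaining Stk11 of its group.

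**Figure D3:**
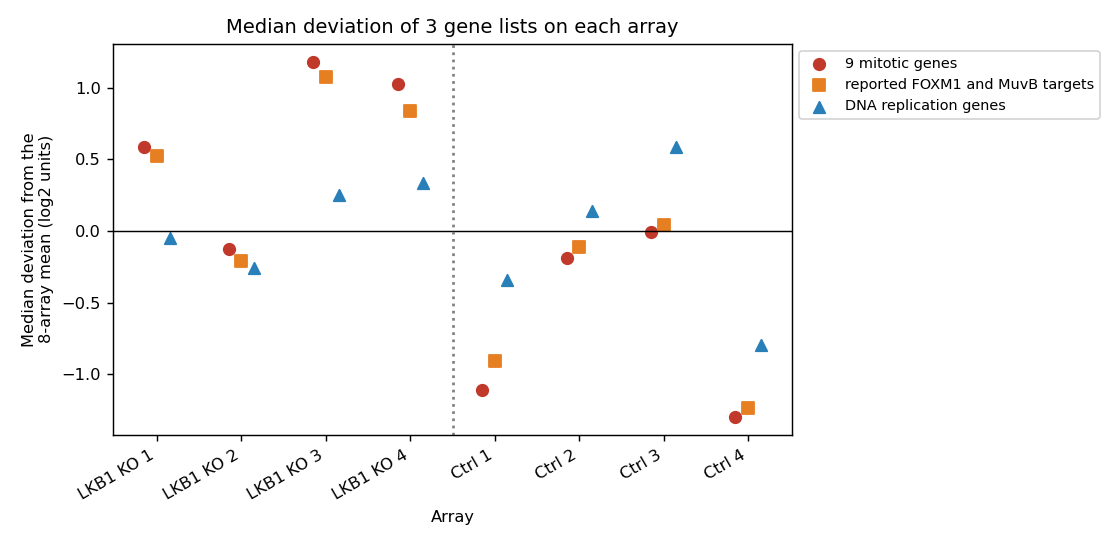
Median deviation from the 8-array mean, in log2 units, on each array for the 9 mitotic genes (red circles), 31 reported FOXM1 and MuvB targets (orange squares) and 39 DNA replication genes (blue triangles), with LKB1 KO arrays left of the dotted line. The mitotic genes and the targets track each other. The median deviation of the mitotic genes, not their level, lies above that of the replication genes on all 4 LKB1 KO arrays. It lies below that of the replication genes on all 4 Ctrl arrays.

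Set against each other on the same array, the genes varied much less. When the median deviation of the other 8 genes was subtracted, the SD within groups was between 0.10 log2 units for Aurka and 0.34 for Cdk1. For 7 genes these relative values overlapped between the groups. Plk1 stood above the median of the other 8 genes on every LKB1 KO array, by 0.09 to 0.27. On every Ctrl array Plk1 stood below that median, at -0.40 to -0.07. Aurkb went the opposite way, at -0.39 to 0.06 on LKB1 KO arrays and 0.13 to 0.45 on Ctrl arrays. Relative to the set, then, Plk1 differed by 0.38 log2 units and Aurkb by -0.48. In level, Plk1 had the largest difference of the set (1.64) and Aurkb the smallest (0.89). The opposite signs largely restate these extremes and are not a separate finding. How often relative values of this kind separate the groups was not computed over all genes. Plk1 and Aurkb were singled out after the values were seen, and the difference between them was not tested.

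**Figure D4:**
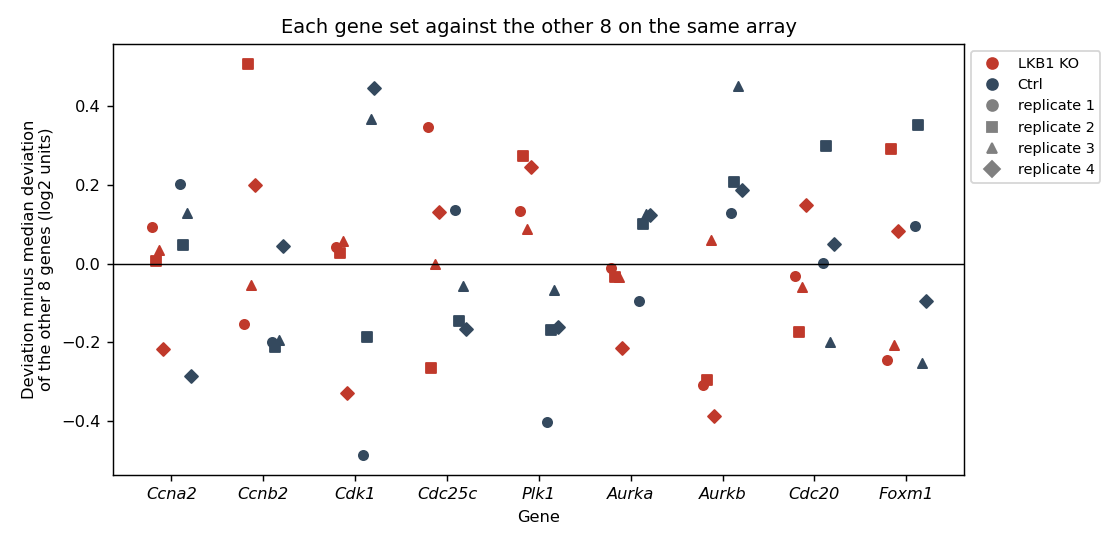
Deviation of each gene minus the median deviation of the other 8 genes on the same array, in log2 units, with LKB1 KO arrays (red) left of Ctrl arrays (dark) and 1 marker shape per replicate number. Plk1 (LKB1 KO above 0, Ctrl below) and Aurkb (Ctrl above 0) are the genes whose groups do not overlap.

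The calls of Ccnb2 and Plk1 depended on single arrays. Ccnb2 lost its call without LKB1 KO 1, LKB1 KO 3, LKB1 KO 4, Ctrl 1 or Ctrl 4, with a limma adjusted p of up to 0.0845, and Plk1 without these or Ctrl 2, with up to 0.135. Without LKB1 KO 2 the genes past the threshold were Ccnb2, Plk1 and Cdc25c. Without Ctrl 4 there were 0 (limma, lowest adjusted p 0.0511, with 8 of the 9 under an unadjusted 0.05), and without both arrays Cdc25c passed (adjusted p = 0.0224) while Ccnb2 stood at 0.0520 and Plk1 at 0.0555. The differences themselves moved less. With any 1 array left out, that of Ccnb2 lay between 1.37 and 1.76 log2 units, that of Plk1 between 1.42 and 1.91, and the median of the 9 genes between 1.02 and 1.55.

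**Figure D5:**
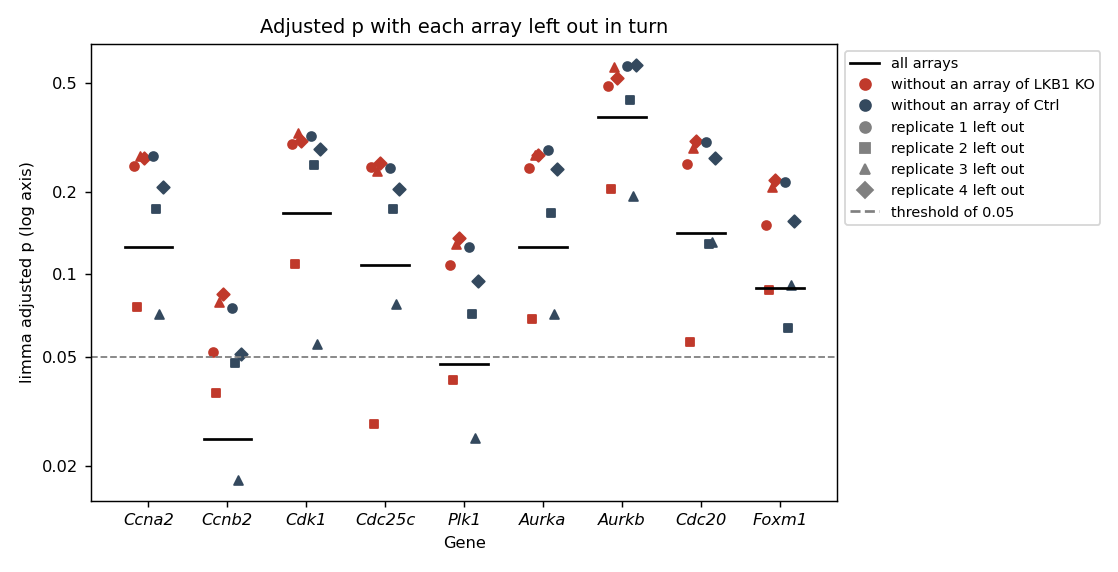
Adjusted p of each gene on a log axis, for all 8 arrays (black bar) and with each array left out in turn (red, an LKB1 KO array; dark, a Ctrl array; marker shape, replicate number). The dashed line is the threshold of 0.05. Below it with all arrays are Ccnb2 and Plk1, and leaving out LKB1 KO 2 (red square) or Ctrl 3 (dark triangle) gives a lower p than all 8 arrays in 8 of the 9 genes each.

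The other genes that control CDK1 and the mitotic kinases were read from the same fit. Of 20 measured regulators of CDK1, among them inhibitory kinases, CDC25 phosphatases, CKS subunits and checkpoint kinases, 0 passed in either direction (limma; 8 had an unadjusted p under 0.05, as did 13.4% of all genes), and the median difference was 0.33 log2 units. The members with the smallest p were the stress gene Gadd45a, whose product can inhibit the CDK1 complex, at 0.76 (limma adjusted p = 0.0512), and the CDK subunit gene Cks1b at 0.58 (limma adjusted p = 0.197). Of 21 partners and relatives of the Aurora and Polo-like kinases 1 rose, the stress-responsive kinase gene Plk3, and 0 fell, with a median of 0.81. Plk3 read 8.19, 8.04, 8.56 and 8.18 in LKB1 KO 1 to 4, against 6.36, 5.72, 6.93 and 6.34 in Ctrl 1 to 4. Its groups were 1.10 log2 units apart, and the difference of 1.91 (SE 0.23, limma adjusted p = 0.00300) held with any single array left out and was lost without moderation of variances (adjusted p = 0.0613). Birc5, which encodes survivin of the Aurora B complex, stood at 1.26 (limma adjusted p = 0.0512).

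Of 27 genes of the anaphase-promoting complex and the spindle checkpoint 1 rose and 0 fell, with a median of 0.25. The gene that rose was Mad2l1, whose product holds CDC20 inactive until chromosomes are attached, at 1.44 log2 units (SE 0.30, limma adjusted p = 0.0366). Its call remained with a single array left out only in the case of Ctrl 3, with an adjusted p of up to 0.112 otherwise. Ube2c, the ubiquitin-conjugating enzyme of the complex, differed by 1.38 (SE 0.37, limma adjusted p = 0.0942). The 14 core subunits from Anapc1 to Cdc27 lay between -0.13 and 0.80, none of them past the threshold. Over the 18 genes of the MuvB, B-MYB, DREAM and NF-Y complexes, which switch mitotic genes on and off, 0 passed. Their median difference was 0.02, and 5 had an unadjusted limma p under 0.05, as did 13.4% of all genes. The smallest p-value there was that of the E2F repressor gene E2f8, at -0.86 (SE 0.27, limma adjusted p = 0.168). Next came the MYB family gene Mybl1, at 1.86 (SE 0.61, limma adjusted p = 0.186). Mybl1 read 3.29 in Ctrl 1, below the background gauge of 3.73, so the size of its difference is uncertain.

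A list of 31 other genes reported as targets of FOXM1 or MuvB resembled the 9 genes most, with a median difference of 1.14 log2 units and 29 of 31 means higher in LKB1 KO. Of these 3 rose and 0 fell: Cdca3, which helps to remove the CDK1 inhibitor WEE1, Cdkn3, a phosphatase gene, and Gtse1, a microtubule-binding gene. Their differences were 1.62 (SE 0.32, limma adjusted p = 0.0296), 1.48 (SE 0.30, limma adjusted p = 0.0329) and 0.87 (SE 0.18, limma adjusted p = 0.0345). Leaving out LKB1 KO 1, LKB1 KO 3 or LKB1 KO 4 ended all 3 calls. Without Ctrl 3, 14 of the 156 distinct pathway genes passed, against 5 with all arrays, and 1 without LKB1 KO 1, LKB1 KO 3 or LKB1 KO 4. The count was 2 without Ctrl 2 or Ctrl 4, 3 without Ctrl 1 and 7 without LKB1 KO 2, all of them higher. Over all genes 0.487% were called higher and 1.49% lower. Higher calls were thus 24.7% of all calls, and 36.8% after quantile normalization.

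DNA replication genes, which peak before mitosis, had a median difference of 0.12 log2 units over 39 genes, of which 0 passed. Of the 39, 5 had an unadjusted limma p under 0.05, a share no larger than the 13.4% of all genes. The thymidylate synthase gene Tyms stood at 0.96 (limma adjusted p = 0.136) and the ribonucleotide reductase gene Rrm2 at 1.40 (limma adjusted p = 0.159). On each array the median deviation of the 9 mitotic genes was set against that of the replication genes. The mitotic median was higher by 0.63, 0.14, 0.93 and 0.69 log2 units in LKB1 KO 1 to 4. In Ctrl 1 to 4 it was lower, at -0.76, -0.32, -0.59 and -0.50. These gaps did not overlap between the groups. The mitotic medians taken alone did overlap, with Ctrl 3 lying 0.12 log2 units above LKB1 KO 2. They are given as a description, since both lists were chosen with earlier results known. Of 9 genes of the D-type cyclins and their partners 0 passed, and the median was -0.02. An unadjusted limma p under 0.05 was found in 2 of them, against 13.4% of all genes. Ccnd1, which acts at entry into the cycle, stood at 0.75 (limma adjusted p = 0.0909) and the retinoblastoma gene Rb1 at -0.36 (limma adjusted p = 0.253).

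The genes outside the set whose pattern was most like it were ranked by the root mean square distance, over the 8 arrays, between a gene's deviations and the median deviations of the 9. The nearest was Kif20a, a kinesin gene of the central spindle, at 0.108 log2 units, followed by the kinetochore gene Knl1 (0.132), the Aurora A activator gene Tpx2 (0.139) and Reep4 (0.144). Kif20b, a second kinesin gene, Cip2a, an inhibitor of the phosphatase PP2A, Dbf4, a subunit of the CDC7 kinase, and Trim59 came next, at 0.147 to 0.161. The median distance over all genes was 0.884. Within the set the distance was smallest for Aurka (0.0906) and largest for Cdk1 (0.280). None of the 8 neighbours passed the threshold, with differences between 1.06 for Trim59 and 1.44 for Cip2a and limma adjusted p from 0.0803 for Tpx2 to 0.190 for Dbf4.

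Markers of other liver cell types differed in the same arrays, and their part in the mitotic differences was not tested. Over all genes 1.49% were called lower. Of 8 endothelial markers 3 fell and 0 rose (Clec4g at -0.83, Kdr at -0.72 and Gpr182 at -0.68 log2 units). Not called were Stab2 at -0.66, Oit3 at -0.46, Lyve1 at -0.15, Cdh5 at -0.10 and Pecam1 at -0.08. The sum of the 8 log2 values was 52.0 to 53.8 in LKB1 KO arrays, against 54.7 to 57.5 in Ctrl arrays. Of 8 macrophage markers 1 fell (Csf1r at -0.78), with sums of 48.5 to 51.8 in LKB1 KO and 50.8 to 58.6 in Ctrl. Of 4 erythroid markers 1 fell (Alas2 at -1.03), while Slc4a1 stood at 0.38, Epb42 at 0.11 and Epor at -0.04, and the median difference of the 4 was 0.03. The sums of the 4 were 14.78 to 16.88 in LKB1 KO and 16.02 to 17.10 in Ctrl. Apart from Clec4g, these markers lost their calls when 1 or another array was left out (limma adjusted p up to 0.0634 for Gpr182, 0.130 for Kdr, 0.110 for Csf1r and 0.141 for Alas2). None of the 7 hepatocyte, 8 stellate cell, 5 cholangiocyte, 8 lymphocyte or 6 neutrophil markers passed the test. Their sums overlapped between the groups. The hepatocyte sums did so narrowly, at 78.01 to 79.40 in LKB1 KO and 79.36 to 80.25 in Ctrl. Of the 7 hepatocyte means 6 were lower in LKB1 KO. The neutrophil sum was 23.05 to 25.98 in LKB1 KO and 25.06 to 31.63 in Ctrl, and the median deviation of these markers was 1.11 log2 units in Ctrl 4, the array lowest in 7 of the mitotic genes. Of the 6 neutrophil means 5 were lower in LKB1 KO and 1 was higher. S100a8 and S100a9, the neutrophil markers above background, each stood at -1.07 (limma adjusted p = 0.164 and 0.179). For both, every LKB1 KO array lay below every Ctrl array, a pattern seen in 1275 of the 23185 genes. The 7 hepatocyte markers all averaged above the background gauge, as the labelled tissue would have them. Below background on average were the cholangiocyte markers Epcam and Cftr, the lymphocyte markers Cd3e, Cd3d, Cd8a, Cd4, Cd79a, Ms4a1 and Nkg7, the neutrophil markers Ly6g, Csf3r, Retnlg and Ngp, and the erythroid markers Slc4a1 and Epb42.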

How the data were processed

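The deposited table holds log2 expression values, 1 per row and array, that the authors had already summarised and normalized. Per the submitters' processing notes this was done with RMA, which corrects background, equalises the distributions of arrays and summarises probes, and with Partek; no versions are named. The labels' protocols describe TRIzol extraction, single primer isothermal amplification and biotin labelling. Array design, probe positions and genome build were not given in the sources used here, and coordinates are left out. In the deposited values the distributions were not equal, since the median over all genes ran from 3.75 to 3.96 log2 units across arrays. RMA compresses differences between dim probes, and probes of related genes can share signal.

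The platform annotation gave 1 gene symbol to 23185 of the 25206 rows, several to 0 and none to 2021. Each named gene was fitted with limma 3.58.1 (lmFit and eBayes, R 4.3.3), with group as the single term, with Benjamini-Hochberg adjustment across all 23185. The procedure was checked on simulated data in which each gene was drawn independently. The check therefore does not cover genes that vary together across arrays. Differences are LKB1 KO minus Ctrl. Array numbers 1 to 4 stand in both groups and are not said to pair them.

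The 9 genes, 7 pathway lists (156 genes, 9 of them on more than 1 list) and 8 marker lists were chosen with earlier results of these data known. The text names all 9, Stk11, up to 5 genes past the threshold per pathway list (otherwise the 2 with the smallest p) and the 8 nearest in pattern. The markers and core subunits named beside them were chosen after their values were seen.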

Additional observations from a re-analysis of the deposited data

Results flagged for a closer look

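Over the 9 mitotic genes, Stk11 and the median deviation of the 9, 22 groups of 4 values were examined for a value far from the other 3, a criterion that chance meets in about 1 of 20 groups. Cdc25c in LKB1 KO 2 was the 1 value found: it stood at 4.80 log2 units, against 6.10, 6.36 and 6.24 in LKB1 KO 1, 3 and 4, a gap of 0.835 of the range of the group. The same array was the lowest LKB1 KO array for all 9 genes and had the highest median and the narrowest spread of values over all genes.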

How the results depend on the processing

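The 9 differences kept their sign in all 171 values from 19 alternatives. The number of the 9 past the threshold (2) was 0 to 3 with single arrays left out, 1 without both LKB1 KO 2 and Ctrl 4, 1 with a replicate block, 1 with median centring, 0 without moderation of variances (limma's lowest adjusted p 0.178) and 0 at an adjusted p under 0.01; in each of these fits with none 8 had an unadjusted p under 0.05. The replicate block, a term for the array number, kept Ccnb2 (adjusted p = 0.0371) and moved Plk1 to 0.0650. Correlations of same-numbered deviations ran from -0.11 to 0.18, and those of differently numbered ones from -0.18 to 0.24. So few values cannot decide whether the numbers pair the arrays. The numbers were not used as pairs because the labels do not give them that meaning. Array weights added Cdc25c (adjusted p = 0.0262).

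Of the 156 pathway genes, 5 passed; 1 to 14 did with single arrays left out, 2 with the replicate block, 13 with quantile normalization, 2 with median centring, 10 without the dimmest of 3 equal bins of genes, 0 without moderation (45 at an unadjusted p under 0.05), 22 with array weights and 1 at an adjusted p under 0.01. Over all genes, 458 passed (113 higher, 345 lower). With single arrays left out the total ran from 213 to 491, higher calls from 42 to 144 and lower calls from 164 to 382. The replicate block gave 268 in all and 186 lower, no moderation 97 (13 higher, 84 lower), array weights 721 with 254 higher, an adjusted p under 0.01 139 (24 higher, 115 lower), and quantile normalization 198 higher. Higher calls were 24.7% of all calls as deposited, 36.8% with quantile normalization, 18.9% with median centring and 35.2% with array weights. The cause of these shifts was not tested. With 4 arrays per group, differences of the size of the spread between arrays were not resolved, and neither were some larger ones. The 7 mitotic genes that did not pass each differed by more than their SD within groups. Cdk1, for example, differed by 1.23 log2 units, against an SD within groups of 0.70.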

Other observations

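Relatives of the mitotic genes other than Plk3, picked after their values were seen, had differences between -0.18 and 0.99 log2 units, and none passed the threshold of the fit. The phosphatase gene Cdc25a stood at 0.26 (SE 0.19). Cdc25b averaged 3.70 log2 units in LKB1 KO and 3.66 in Ctrl, below the background gauge of 3.73, so its difference is not informative. Ccna1 and Ccnb3, cyclin genes known mainly from germ cells, averaged 3.39 and 2.10 log2 units in LKB1 KO and 3.26 and 2.04 in Ctrl, all below the same gauge. Aurkc, the Aurora gene of meiosis, stood at -0.18 (SE 0.39). Among Polo-like kinase genes, Plk4, which drives centriole duplication, stood at 0.99 (SE 0.39, limma adjusted p = 0.294) and Plk2 at 0.81 (SE 0.20, limma adjusted p = 0.0693). The CDK inhibitor gene Cdkn1a, which encodes p21, stood at 0.61 (SE 0.21, limma adjusted p = 0.204), and the CDK1-inhibiting kinase genes Wee1 and Pkmyt1 at 0.33 (SE 0.42) and 0.81 (SE 0.35). Wee1 averaged 3.83 in LKB1 KO and 3.51 in Ctrl, on either side of the gauge, so the size of its difference is uncertain. Differences between these relatives were not tested.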
